A study of Homo sapiens with 8 samples.

Results

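Glycolysis and hypoxia response genes were examined in cultured human chordoma cells, as a list of 35 genes in 4 role groups: 14 glycolytic enzymes, 6 glycolytic regulators and transporters, 13 targets of hypoxia-inducible factor (HIF) outside glycolysis, and the 2 HIF alpha subunits. A gene was taken if the array's annotation gave it a probe set with exactly 1 gene symbol, and the brightest such probe set stood for it. That left 32 of the 35, out of 22395 genes named in this way, and all 32 were tested. The lactate exporter gene SLC16A3, the carbonic anhydrase gene CA9 and the mitophagy gene BNIP3 had no probe set of this kind. Their RNA is not analysed here, but their promoter windows are counted below. RNA was measured on 8 whole-transcript arrays in 4 groups. MUG-Chor1 cells given TNF-α (1 array), untreated MUG-Chor1 cells (3 arrays), U-CH1 cells given TNF-α (1 array) and untreated U-CH1 cells (3 arrays) were compared. TNF-α, an inflammatory cytokine, was recombinant human protein at 10 ng/mL, added 3 times a week over 1 week. Both lines were derived from chordomas, rare tumours of the axial skeleton thought to arise from notochord remnants. All groups grew as monolayers on gelatin in IMDM and RPMI with 10% serum. The labels state neither the oxygen level nor whether the controls were separate cultures. P-values therefore rest on how far these arrays spread, which could be technical variation alone, and each TNF group is a single array.

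Glycolysis splits glucose into pyruvate in the cytosol, and lactate dehydrogenase regenerates the cofactor that keeps it running when respiration is limited. HIF is a transcription factor made of an oxygen-labile alpha subunit and a stable partner. Prolyl hydroxylases mark the alpha subunit for destruction when oxygen is present, so most of its control acts on the protein rather than on the RNA measured here. When it accumulates, HIF raises many glycolytic genes together with genes for blood vessel growth, pH control and mitophagy, and inflammatory signalling through NF-kB can raise HIF1A transcription.

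Values are the authors' RMA values, taken as log2, so a difference of 1 is a doubling. Array medians ran from 2.52 to 2.63. The NF-kB target TNFAIP3 read 8.03 on the MUG-Chor1 TNF array, against 4.65 to 5.58 on the MUG-Chor1 controls, and 8.44 on the U-CH1 TNF array, against 4.75 to 4.99 on the U-CH1 controls. TBXT, which encodes brachyury, the defining transcription factor of chordoma, read 9.40 to 9.46 on the MUG-Chor1 controls and 9.14 to 9.75 on the U-CH1 controls. It was 7.51 on the MUG-Chor1 TNF array and 8.80 on the U-CH1 TNF array. Of the 6 leukocyte markers measured, PTPRC, CD3E and CD163 lay at 1.94 or below on all 8 arrays, under the median of all deposited values, 2.57. CD68 read 7.67 to 9.17, and ITGAM and CD14 reached 3.54 and 3.45 on the U-CH1 TNF array. In cultures measured in bulk, fewer cells of a type and less RNA per cell cannot be told apart.

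Promoter windows from RefSeq (GRCh38.p14, 250 bases before to 50 after a start site) were matched by symbol for 30 of the 35 genes, 58 windows in all; BNIP3L, NDRG1, SLC2A3, STC1 and VEGFA were not matched. The HIF core motif is ACGTG or GCGTG, searched on both strands. At least 1 of them was found in 67.2% of the 58 windows, against 48.4% of 35116 windows in the table and 54.7% of those of protein-coding genes. ACGTG alone was in 36.2% of the members' windows, 21.4% of all windows and 23.05% of protein-coding ones. GCGTG was in 43.1% of the members' windows, 36.5% of all windows and 43.0% of protein-coding ones. By window its share in the members was thus that of protein-coding genes, but by gene it was 66.7%, against 50.4%. By gene, ACGTG was in 56.7% of members and 28.5% of protein-coding genes, and either motif in 93.3% and 61.9%. Genes with several start sites count several times by window and have more windows to match by gene. A match is not a bound site. The 250 bases before the start site are shown for ALDOC, the enzyme with the largest line difference, and for ADM, STC2 and ENO2, which passed the test with TNF in at least 1 comparison. They are written 5′ to 3′ on the gene's strand with matches in capitals.
ALDOC (chr17:28576896-28577145, minus strand): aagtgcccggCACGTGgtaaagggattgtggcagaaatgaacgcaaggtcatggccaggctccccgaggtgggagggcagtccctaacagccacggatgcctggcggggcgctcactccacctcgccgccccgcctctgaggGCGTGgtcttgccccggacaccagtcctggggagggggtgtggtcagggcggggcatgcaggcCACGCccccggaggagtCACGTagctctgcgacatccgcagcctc
ADM (chr11:10304823-10305072, plus strand): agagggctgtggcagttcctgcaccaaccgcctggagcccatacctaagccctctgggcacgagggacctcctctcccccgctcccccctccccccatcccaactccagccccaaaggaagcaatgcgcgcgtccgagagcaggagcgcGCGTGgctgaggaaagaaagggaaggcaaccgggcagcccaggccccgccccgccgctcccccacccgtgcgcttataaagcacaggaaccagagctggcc
STC2 (chr5:173328415-173328664, minus strand): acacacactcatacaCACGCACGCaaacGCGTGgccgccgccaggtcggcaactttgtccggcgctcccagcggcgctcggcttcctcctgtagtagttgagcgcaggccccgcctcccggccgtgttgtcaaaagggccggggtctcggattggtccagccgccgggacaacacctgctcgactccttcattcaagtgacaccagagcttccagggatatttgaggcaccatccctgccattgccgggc
ENO2 (chr12:6914330-6914579, plus strand): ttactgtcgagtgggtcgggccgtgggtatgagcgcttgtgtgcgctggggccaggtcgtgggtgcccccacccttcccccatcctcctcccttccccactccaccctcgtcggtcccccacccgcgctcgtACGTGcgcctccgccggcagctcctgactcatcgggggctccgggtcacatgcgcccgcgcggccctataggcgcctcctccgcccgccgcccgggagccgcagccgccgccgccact
ALDOC held 3 ACGTG and 2 GCGTG matches, with 1 CACGTG that counts on both strands, ADM 1 GCGTG, STC2 3 GCGTG (some of them overlapping) and ENO2 1 ACGTG.

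Untreated MUG-Chor1 cells held less RNA of much of the glycolytic pathway than untreated U-CH1 cells. Of the 32 genes, 13 were lower in MUG-Chor1 controls, 0 were higher and 19 did not pass (limma, adjusted p under 0.05, 3 arrays each). Over all 16986 genes tested, 8.57% were lower and 10.3% higher in that comparison, 18.9% in either direction. The median difference was -0.48 over the 32 genes and -0.043 over all genes tested. For 17 of the 32, every MUG-Chor1 control lay below every U-CH1 control, and for 0 did every one lie above, against 18.2% and 18.1% of all genes. At an unadjusted p under 0.05, 17 were lower and 0 higher, against 2568 and 2821 of all 16986 genes tested. Identity markers differed as well: the 10 chordoma and notochord markers summed to 68.2 to 70.8 (log2 values) on the MUG-Chor1 controls, against 75.5 to 79.2 on the U-CH1 controls, the 5 endothelial markers to 17.1 to 18.5, against 14.9 to 15.9, and the 5 fibroblast markers to 18.7 to 22.7, against 16.8 to 18.3. Single genes carried these gaps. Without EPYC the chordoma sums overlapped, at 64.3 to 66.6 in MUG-Chor1 and 66.3 to 70.3 in U-CH1, and without KDR so did the endothelial sums, at 10.17 to 10.94 and 10.49 to 10.88 in the same order. Without DPP4 the fibroblast sums overlapped too, at 13.1 to 16.1 and 13.6 to 15.5. KRT19 and COL2A1 also lay lower, and PDGFRB higher, on every MUG-Chor1 control than on every U-CH1 control. The other markers of these lists overlapped between the lines. The part of these markers in the line difference was not tested.

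**Figure D1:**
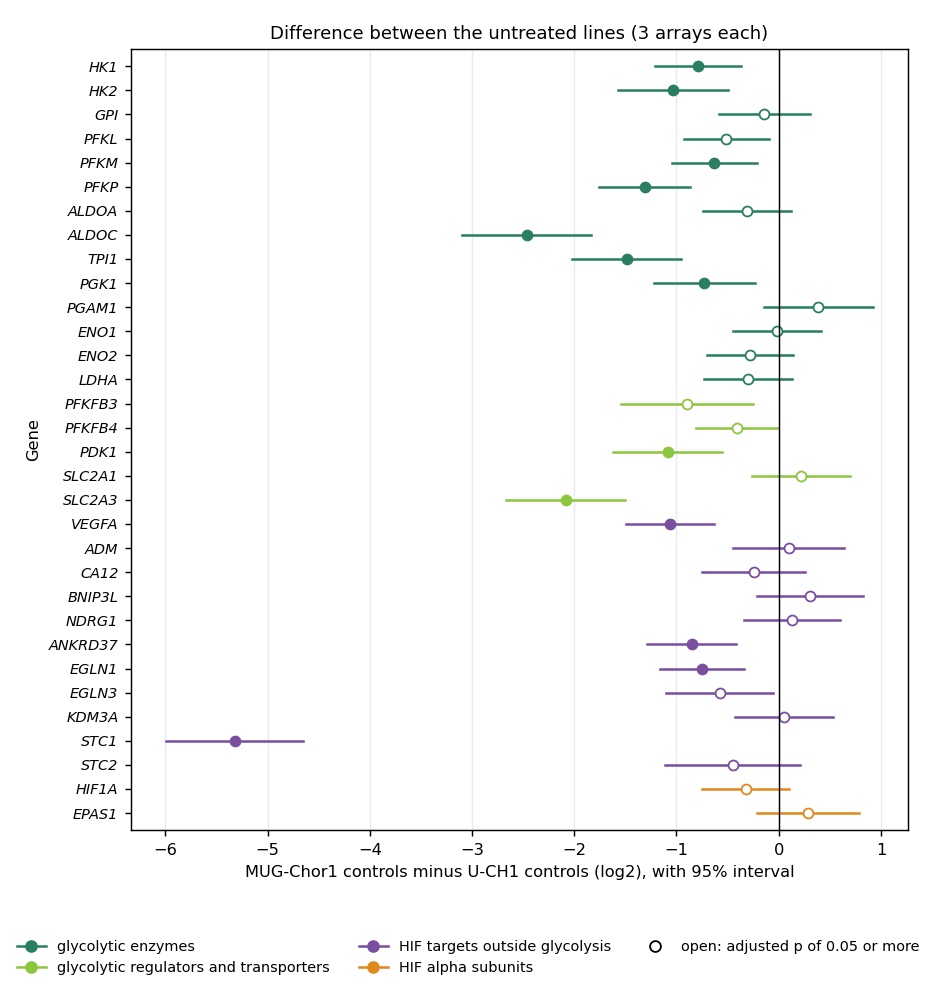
Each row is a gene, and the horizontal axis is its mean on the 3 MUG-Chor1 controls minus its mean on the 3 U-CH1 controls (log2), with 95% intervals from limma. Filled points had an adjusted p under 0.05; the 13 of them all lie left of 0, with STC1 farthest at -5.32.

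Among the glycolytic enzymes 7 of 14 were lower in MUG-Chor1 controls, 0 were higher and 7 did not pass, with a group median of -0.57. The largest difference belonged to ALDOC, which encodes aldolase C, the isoform typical of brain that cleaves fructose bisphosphate. ALDOC read 3.16, 3.36 and 3.66 on the MUG-Chor1 controls, against 5.40, 5.67 and 6.51 on the U-CH1 controls. The groups lay well apart, and the difference was 5.52-fold (log2 -2.47 ± 0.28, SE; limma adjusted p = 0.000226). The other isoform measured, ALDOA, the aldolase of muscle and most tissues, averaged 6.64 ± 0.05 in MUG-Chor1 controls and 6.95 ± 0.24 in U-CH1 controls (SD, n = 3 each), with a difference of -0.31 and an interval of -0.74 to 0.12 that did not pass.

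The first steps of the pathway differed too. HK1, the widely expressed hexokinase, read 3.85, 4.20 and 4.07 on the MUG-Chor1 controls, against 4.73, 4.795 and 4.97 on the U-CH1 controls (log2 -0.79 ± 0.19, SE; limma adjusted p = 0.0159). HK2, the hexokinase that HIF induces, read 5.77, 5.51 and 4.86 on the MUG-Chor1 controls, against 6.49, 6.33 and 6.41 on the U-CH1 controls (log2 -1.03 ± 0.24, SE; limma adjusted p = 0.0138). Neither gene overlapped between the lines, and MUG-Chor1 control 3 was the lowest array for HK2. Of the 3 phosphofructokinase genes, which encode the committing enzyme, PFKP read 5.96, 5.63 and 5.52 on the MUG-Chor1 controls, against 7.22, 6.90 and 6.93 on the U-CH1 controls, a 2.48-fold difference (log2 -1.31 ± 0.20, SE; limma adjusted p = 0.00134). PFKM, the muscle isoform, read 5.52, 5.59 and 5.33, against 5.99, 6.27 and 6.07 in U-CH1 (log2 -0.63, limma adjusted p = 0.0396). The liver isoform PFKL differed by -0.51 and did not pass (limma adjusted p = 0.0852), though its groups did not overlap either.

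Lower in the pathway, TPI1, which encodes triosephosphate isomerase, read 4.10, 3.47 and 3.19 on the MUG-Chor1 controls, against 5.12, 5.07 and 5.03 on the U-CH1 controls, a 2.80-fold difference (log2 -1.49 ± 0.24, SE; limma adjusted p = 0.00182). PGK1, phosphoglycerate kinase, read 6.26, 6.46 and 5.76, against 7.04, 6.77 and 6.85 in U-CH1 (log2 -0.73, limma adjusted p = 0.0440). For both genes all MUG-Chor1 controls were the lower ones. The remaining enzymes GPI, PGAM1, ENO1, ENO2 and LDHA differed by -0.30 to 0.39 and did not pass. PGAM1, the phosphoglycerate mutase, was the only enzyme with a positive difference. Several of these enzymes, among them TPI1, PGK1, PGAM1, ENO1 and LDHA, have processed pseudogenes that could share probes, so their identity is less certain than that of the others.

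Of the 5 regulators and transporters measured, 2 were lower in MUG-Chor1 controls, 0 were higher and 3 did not pass. SLC2A3, the high-affinity glucose transporter GLUT3, read 1.72, 2.21 and 1.97 on the MUG-Chor1 controls, against 3.70, 4.63 and 3.83 on the U-CH1 controls (log2 -2.08 ± 0.26, SE; limma adjusted p = 0.000410). Its MUG-Chor1 values all lie under 2.57, where a log2 difference understates a change. SLC2A3 passed the filter only through the 4 U-CH1 arrays, the line in which it was higher. PDK1, a pyruvate dehydrogenase kinase, read 6.22, 5.91 and 5.43, against 6.71, 6.92 and 7.19 in U-CH1 (log2 -1.09 ± 0.24, SE; limma adjusted p = 0.0105). SLC2A1, the basal glucose transporter GLUT1, was at 9.77 to 9.95 in MUG-Chor1 controls and 9.28 to 9.98 in U-CH1 controls, overlapping ranges with a difference of 0.22 and an interval of -0.26 to 0.70. PFKFB3, which makes the allosteric activator of phosphofructokinase, stood at -0.90 (limma adjusted p = 0.0548), and its relative PFKFB4 at -0.41.

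**Figure D2:**
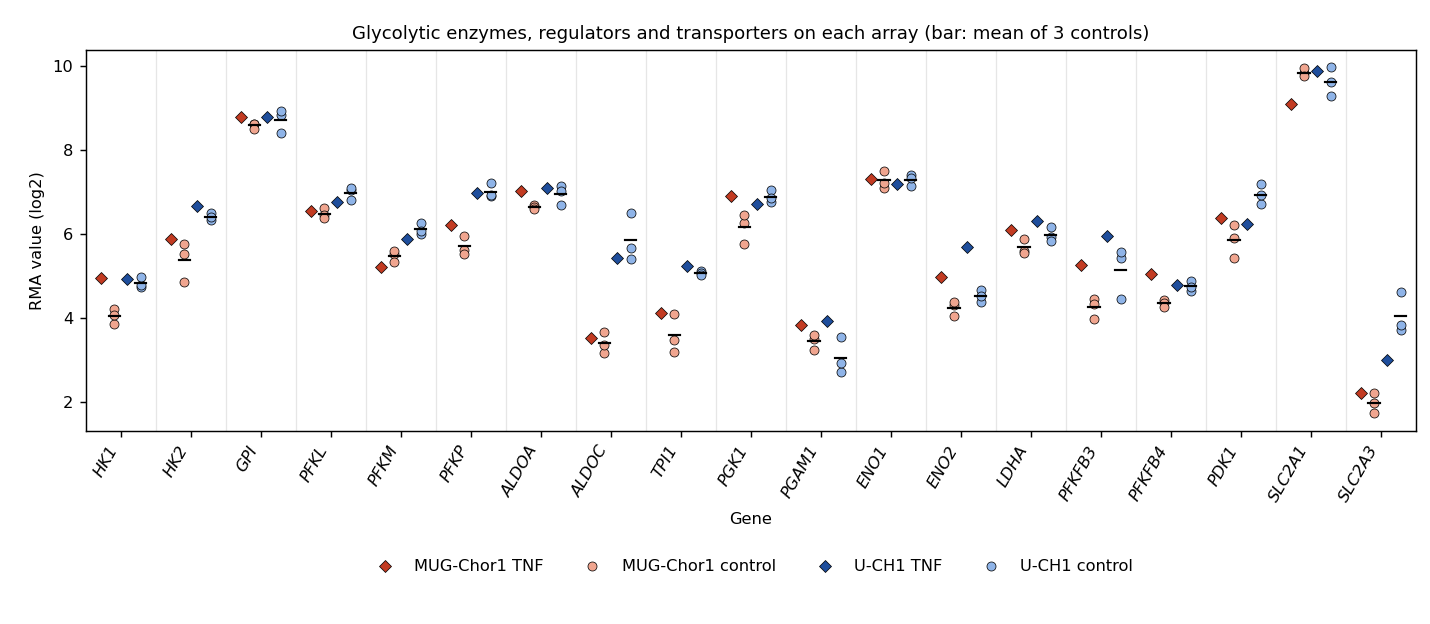
RMA values (log2, vertical axis) of the 14 enzymes and the 5 regulators and transporters on every array; diamonds are the single TNF arrays, circles the controls, black bars the mean of 3 controls. ALDOC, TPI1, PFKP and SLC2A3 are among the genes with MUG-Chor1 controls below all U-CH1 controls. HK2, TPI1, PGAM1, ENO2, LDHA and PFKFB3 show both TNF arrays above the controls of their own line.

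Of the 11 HIF targets outside glycolysis that were measured, 4 were lower in MUG-Chor1 controls, 0 were higher and 7 did not pass, with a median of -0.45. STC1, which encodes the secreted hormone stanniocalcin 1, separated the lines most of all 32 genes. It read 2.25, 1.68 and 1.33 on the MUG-Chor1 controls, against 7.61, 6.59 and 7.02 on the U-CH1 controls. The difference was -5.32 ± 0.30 (log2, SE; limma adjusted p = 2.02e-06). No fold is given, since all MUG-Chor1 values lie under 2.57 at an unknown distance from background, and among controls STC1 passed the filter through U-CH1. VEGFA, the vascular growth factor and a classic HIF target, read 4.12, 4.20 and 4.36, against 5.05, 5.34 and 5.48 in U-CH1 (log2 -1.07 ± 0.19, SE; limma adjusted p = 0.00369). ANKRD37, an ankyrin repeat gene induced by HIF, read 3.43, 3.61 and 3.52, against 4.28, 4.20 and 4.64 in U-CH1 (log2 -0.85, limma adjusted p = 0.0125). EGLN1, which encodes PHD2, the main oxygen-sensing prolyl hydroxylase, read 6.001, 5.92 and 5.95, against 6.69, 6.89 and 6.53 in U-CH1 (log2 -0.75, limma adjusted p = 0.0181). No MUG-Chor1 control reached a U-CH1 control for any of these 4 genes.

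The other HIF targets had overlapping controls between the lines. EGLN3, a further prolyl hydroxylase, had a difference of -0.58 and STC2, the second stanniocalcin, -0.45. CA12, a membrane carbonic anhydrase, had -0.24, the histone demethylase gene KDM3A 0.053, the vasodilator gene ADM 0.096, the stress gene NDRG1 0.13 and the mitophagy receptor gene BNIP3L 0.31, and none passed. HIF1A averaged 9.07 ± 0.21 in MUG-Chor1 controls and 9.39 ± 0.11 in U-CH1 controls, and EPAS1, which encodes HIF-2 alpha, averaged 8.39 ± 0.20 and 8.10 ± 0.34 in the same order (SD, n = 3 each). Neither difference passed: -0.32 (interval -0.75 to 0.10) for HIF1A and 0.29 (interval -0.21 to 0.78) for EPAS1.

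**Figure D3:**
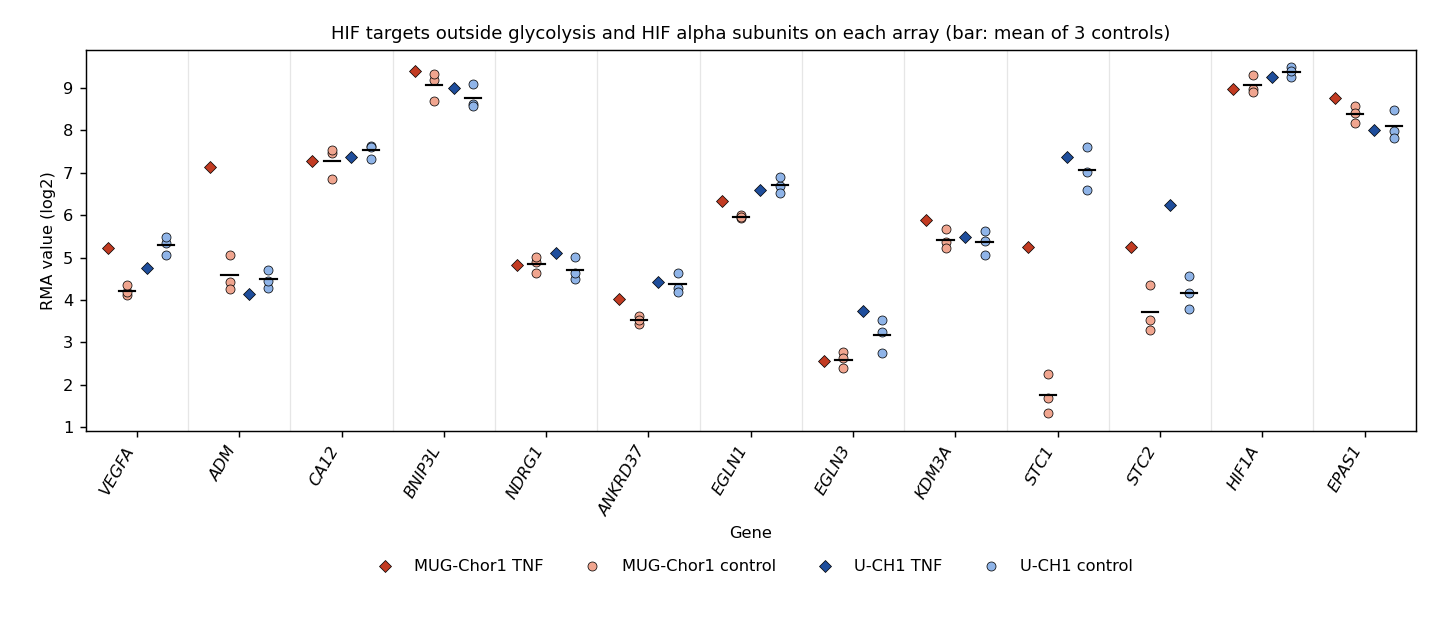
RMA values (log2, vertical axis) of the 11 HIF targets and the 2 HIF alpha subunits on every array; diamonds are the single TNF arrays, circles the controls, black bars the mean of 3 controls. The MUG-Chor1 controls of STC1 sit between 1.33 and 2.25, below every other array, and the MUG-Chor1 TNF array stands alone for ADM at 7.15.

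Further genes of the pathway, from lists put together with earlier results of these data known, were uneven between the untreated lines. Among 16 other glycolysis genes tested, 5 were lower in MUG-Chor1 controls and 1 was higher. TIGAR, a fructose bisphosphatase regulated by p53, was 4.21-fold lower (log2 -2.07), PDK3 2.20-fold lower and LDHB 1.77-fold lower, while PDK4 was 6.58-fold higher (7.37 to 8.24 in MUG-Chor1 controls, 4.73 to 5.29 in U-CH1 controls). PDK1, PDK3 and PDK4 all encode pyruvate dehydrogenase kinases, so members of this enzyme family differed in opposite directions. GAPDH, often used as a reference gene, was lower as well (log2 -0.78, limma adjusted p = 0.0235). Among 35 other HIF and hypoxia targets tested, 13 were lower and 2 higher. The lysyl oxidase relative LOXL2 was lowest at -2.78, followed by P4HA1, a collagen prolyl hydroxylase, at -2.32 and the lipoprotein receptor gene VLDLR at -2.23. PPP1R3C and GBE1, both of glycogen metabolism, were higher by 1.197 and 0.71. Among 17 HIF machinery genes tested, 4 were higher and 0 lower: the transcriptional repressor genes BHLHE41 (log2 3.28) and BHLHE40 (1.43), the HIF asparaginyl hydroxylase gene HIF1AN (1.30), which restrains HIF, and VHL (0.78), which encodes the protein that targets HIF alpha for destruction. Of 20 pyruvate dehydrogenase and citric acid cycle genes tested, SUCLA2 was higher by 0.89, PDHB was lower (log2 -1.198), and 18 did not pass. The share that passed was 37.5% for other glycolysis genes, 42.9% for other HIF targets and 23.5% for HIF machinery genes. It was 10.0% for pyruvate dehydrogenase and citric acid cycle genes, against 18.9% of all genes tested.

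Leaving out MUG-Chor1 control 1 lowered the count of 13 members to 8, and the calls of ANKRD37, EGLN1, HK1, PFKM and PGK1 ended. The call of PFKM ended without any 1 of the 6 controls, and that of PGK1 without any 1 control other than MUG-Chor1 control 2. Each of them ended under 8 of 17 alternatives, with arrays centred on their medians among these. HK2 lost its call without U-CH1 control 1, and EGLN1 also without U-CH1 control 2 or MUG-Chor1 control 2. The calls of STC1, ALDOC, SLC2A3, PFKP, TPI1, VEGFA and PDK1 held without each of the 6 controls in turn. Among controls, STC1 and SLC2A3 passed the filter only through U-CH1.

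With TNF, ADM and STC1 rose in MUG-Chor1 cells, and 27 of the 32 genes (84.4%) had a positive difference, against 9629 of all 16986 genes (56.7%). The share was 17 of 20 (85.0%) for pyruvate dehydrogenase and citric acid cycle genes and 12 of 16 (75.0%) for other glycolysis genes. It was 23 of 35 (65.7%) for other HIF targets and 10 of 17 (58.8%) for HIF machinery genes. A high positive share was therefore not particular to the members. Of the 32 genes 2 rose, 0 fell and 30 did not pass (limma, 1 TNF array against 3 controls, the TNF array being assumed to vary like the controls). Over all genes tested 1.47% rose and 1.41% fell, 2.88% in either direction. At an unadjusted p under 0.05 the counts were 9 higher and 1 lower of 32, against 1265 and 879 of all 16986 genes tested. The TNF array lay above all 3 of its controls for 23 of the 32 genes and below for 2, against 35.3% and 23.9% of all genes tested. The median difference was 0.40 over the members and 0.061 over all genes tested.

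ADM encodes adrenomedullin, a vasodilator peptide that hypoxia and cytokines induce. It read 7.15 on the MUG-Chor1 TNF array, against 4.42, 4.25 and 5.07 on the MUG-Chor1 controls, and the TNF array stood far above all controls. ADM rose 5.93-fold (log2 2.57 ± 0.35, SE; limma adjusted p = 0.00276). STC1 read 5.25 on the TNF array, against 2.25, 1.68 and 1.33 on the controls, and rose (log2 3.49 ± 0.43, SE; limma adjusted p = 0.00161). All 3 control values lie under 2.57, so no fold is given. The TNF array lay above all 3 MUG-Chor1 controls for STC1 but below every U-CH1 array.

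STC2, VEGFA and HK1 came next without passing. STC2 read 5.25 on the TNF array, against 3.52, 3.29 and 4.35 on the controls (log2 1.54, limma adjusted p = 0.0968). VEGFA read 5.23, against 4.12, 4.20 and 4.36 (log2 1.00, limma adjusted p = 0.0979), and HK1 read 4.95, against 3.85, 4.20 and 4.07 (log2 0.90, limma adjusted p = 0.134). For each of these genes the TNF array was the highest of the MUG-Chor1 arrays. Among the 14 enzymes 13 had a positive difference, from 0.038 to 0.90, and PFKM had -0.26, with a group median of 0.40. None passed with limma. When p was left unadjusted 3 were higher and 0 lower, against 1265 and 879 of all 16986 genes tested. SLC2A1 went the other way, at 9.09 on the TNF array, against 9.84, 9.95 and 9.77 on the controls (log2 -0.76, limma adjusted p = 0.318). PFKFB4 had the smallest p of the regulators, at 5.04 on the TNF array, against 4.25 to 4.43 on the controls (log2 0.69, limma adjusted p = 0.259). HIF1A differed by -0.079 (interval -0.68 to 0.53). EPAS1 read 8.77 on the TNF array, against 8.57, 8.42 and 8.17 on the controls, just above them, and differed by 0.39 (interval -0.31 to 1.09).

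**Figure D4:**
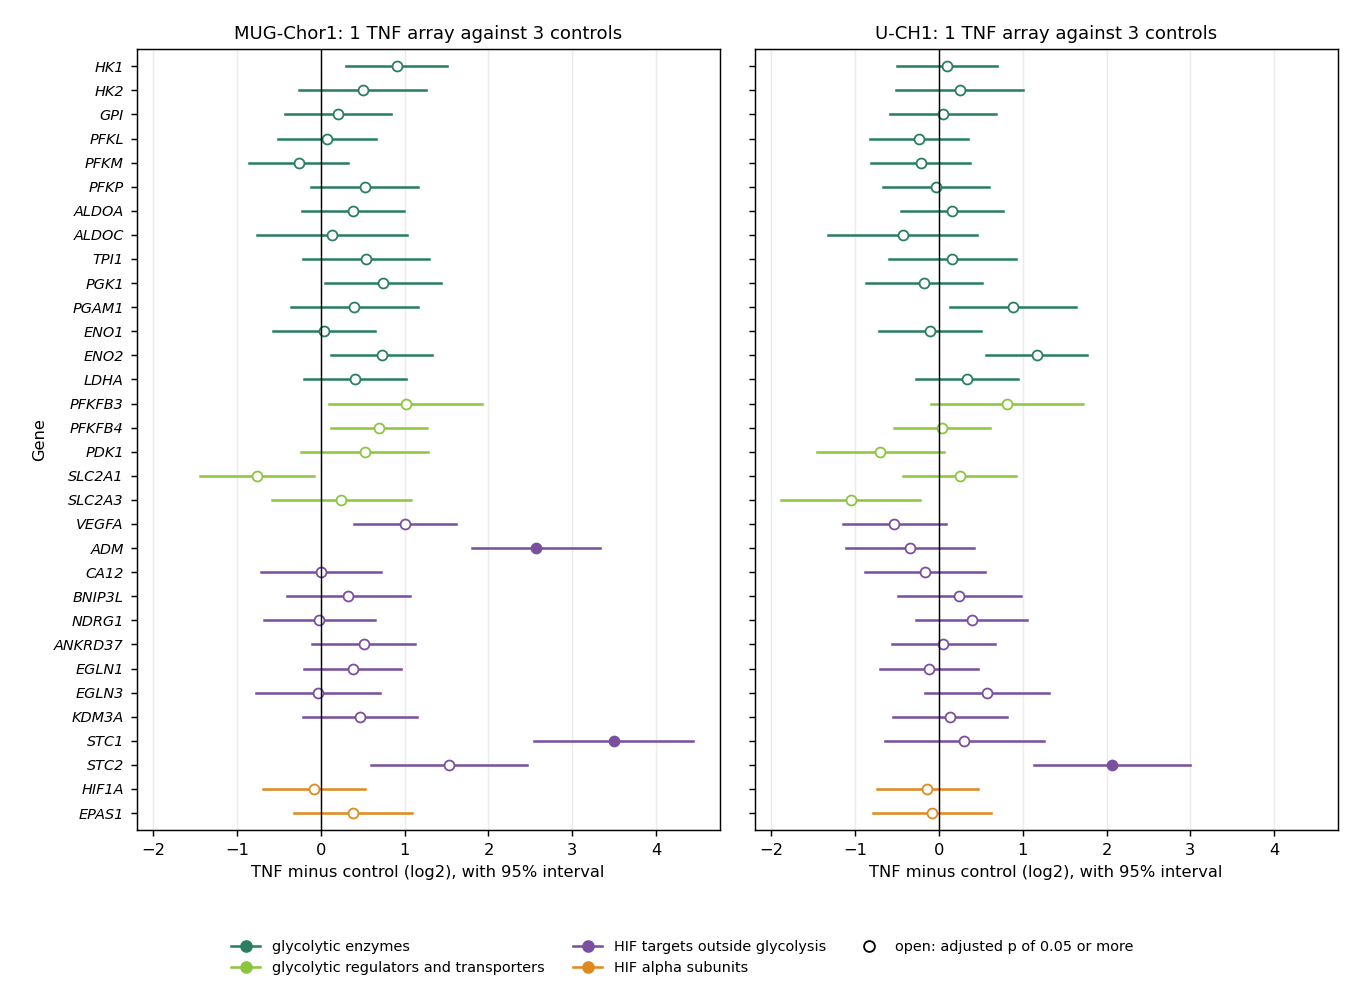
Each row is a gene, and the horizontal axis is the single TNF array minus the mean of the 3 controls of the same line (log2), with 95% intervals from limma; MUG-Chor1 is on the left and U-CH1 on the right. Filled points had an adjusted p under 0.05: ADM and STC1 in MUG-Chor1, STC2 in U-CH1.

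Markers of cell identity moved on the same TNF array. The 10 chordoma and notochord markers summed to 47.9 (log2 values) on the MUG-Chor1 TNF array, against 68.2 to 70.8 on its controls, and to 67.4 on the U-CH1 TNF array, against 75.5 to 79.2 on its controls. The 5 fibroblast markers measured summed to 25.1 on the MUG-Chor1 TNF array, against 18.7 to 22.7 on its controls, and to 19.2 on the U-CH1 TNF array, against 16.8 to 18.3. In MUG-Chor1, FAP (5.71, against 1.63 to 2.29) and DPP4 (8.21, against 5.66 to 6.75) were above all controls, while PDGFRB (3.43, against 3.81 to 4.33) and THY1 (3.80, against 3.99 to 4.93) were below them. The 6 leukocyte markers summed to 18.6, against 16.6 to 17.2, in MUG-Chor1 and to 19.7, against 16.7 to 17.1, in U-CH1, and the 5 endothelial markers to 14.4, against 17.1 to 18.5, and to 15.4, against 14.9 to 15.9. The part of these shifts in the results for glycolysis and HIF targets was not tested.

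In U-CH1 cells STC2 alone of the 32 genes passed. STC2, a secreted glycoprotein also induced by stress of the endoplasmic reticulum, read 6.24 on the TNF array, against 3.80, 4.16 and 4.56 on the U-CH1 controls, and lay clear of all of them. It rose 4.20-fold (log2 2.07 ± 0.42, SE; limma adjusted p = 0.0449). Over all genes tested 0.913% rose and 0.359% fell, 1.27% in either direction. With p unadjusted and under 0.05 the members' counts were 3 higher and 1 lower, against 1187 and 645 of all 16986 genes tested. The call of STC2 ended without any 1 of the U-CH1 controls or without MUG-Chor1 control 1 (adjusted p up to 0.122), with no filter on dim genes (0.0663) and with each array centred on its median (0.0542).

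The glycolytic genes of U-CH1 did not move together. ENO2, the neuronal enolase, read 5.69 on the TNF array, against 4.67, 4.38 and 4.52 on the controls, above all of them (log2 1.17 ± 0.27, SE; limma adjusted p = 0.0756). SLC2A3 read 3.00, against 3.70, 4.63 and 3.83, below all of them (log2 -1.05, limma adjusted p = 0.297). Of the 14 enzymes 8 had a positive and 6 a negative difference, with a median of 0.076, against 0.036 over all genes tested. The TNF array lay above all 3 controls for 9 of the 32 members and below for 8, near the 30.8% and 23.4% of all genes tested. ADM read 4.14 on the U-CH1 TNF array, against 4.29, 4.45 and 4.72, and VEGFA 4.76, against 5.05, 5.34 and 5.48, so both were below their controls here. Neither passed, with differences of -0.35 and -0.53. HIF1A read 9.25 on the TNF array, against 9.27, 9.49 and 9.41 on the controls, just below them, and differed by -0.14 (interval -0.74 to 0.47). EPAS1 lay within its controls, at 8.02, against 7.99, 7.83 and 8.48, and differed by -0.079 (interval -0.78 to 0.62).

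Across both lines, fitted with line and TNF as additive terms, 2 of the 32 genes rose, 0 fell and 30 did not pass, where 1.55% of all genes rose, 0.93% fell and 2.48% changed in either direction. At an unadjusted p under 0.05 the members' counts were 7 higher and 0 lower, against 1677 and 925 of all 16986 genes tested. STC2 rose 3.49-fold (log2 1.80 ± 0.30, SE; limma adjusted p = 0.0127) and was higher than every control of its line on both TNF arrays. ENO2 rose 1.93-fold (log2 0.95 ± 0.19, SE; limma adjusted p = 0.0318), at 4.97 on the MUG-Chor1 TNF array, against 4.05, 4.30 and 4.38 on its controls, with the U-CH1 values given above. PFKFB3, at 0.91, had the smallest p of the regulators (limma adjusted p = 0.131). It read 5.27 on the MUG-Chor1 TNF array, against 4.44, 3.97 and 4.34, and 5.96 on the U-CH1 TNF array, against 5.42, 4.46 and 5.57. The call of ENO2 ended without any 1 control other than MUG-Chor1 control 3 and without either TNF array (adjusted p up to 0.261), and that of STC2 ended without the U-CH1 TNF array (adjusted p = 0.0968).

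The TNF effects of the lines differed for ADM. Its difference of effects, MUG-Chor1 minus U-CH1, was 2.91 ± 0.49 (log2, SE; limma adjusted p = 0.0329), and it was the single member called, where 0.2% of all genes tested were higher and 0.33% lower, 0.53% in either direction. The call ended without any 1 control other than MUG-Chor1 control 3 (adjusted p up to 0.0886), while the difference stayed between 2.75 and 3.16. For STC1 the difference of effects was 3.19 ± 0.60 and did not pass (limma adjusted p = 0.0548), and for VEGFA it was 1.53 (limma adjusted p = 0.176). HK1 at 0.80, PDK1 at 1.22 and EPAS1 at 0.47 had the smallest p of their groups and did not pass either. This comparison uses the same controls as those above.

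The TNF arrays give a line difference that shares no array with the difference between controls. Of the 13 members lower in MUG-Chor1 controls, 9 were also lower on the MUG-Chor1 TNF array than on the U-CH1 TNF array, or 69.2%. Of all 1455 genes lower in MUG-Chor1 controls, 1328 were, or 91.3%, so the members kept this direction in a smaller share than such genes did, with no test of that difference. The median of the 13 was -0.68 between TNF arrays and -1.07 between controls, and that of the 1455 was -0.82 and -1.05. STC1 stood at -2.13 between the TNF arrays, ALDOC at -1.90 and TPI1 at -1.11. HK1 at 0.015, PDK1 at 0.13, PGK1 at 0.19 and VEGFA at 0.47 were the 4 that were not lower. With 1 TNF array for each line this difference has no replicate and was not tested.

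In MUG-Chor1, 4 of 35 other HIF targets (11.4%) passed with TNF, against 2.88% of all genes tested. At an unadjusted p under 0.05 the list had 11 higher and 5 lower, against 1265 and 879 of all 16986 genes tested. There the collagen cross-linking gene LOX read 6.65 on the TNF array, against 3.09 to 4.32 on the controls (log2 2.93, limma adjusted p = 0.00304), and DDIT4, an inhibitor of mTORC1 induced by hypoxia, read 6.14, against 3.78 to 4.31 (log2 2.03). PPP1R3C fell by 1.61 and the small GTPase gene RAB20 fell by 1.499 on the log2 scale there, so the 4 calls were 2 higher and 2 lower. PDK4 fell 11.4-fold in MUG-Chor1 (4.23 on the TNF array, against 7.37, 7.62 and 8.24; limma adjusted p = 0.000639) and was the 1 call among 16 other glycolysis genes. It read 5.70 on the U-CH1 TNF array, against 4.73 to 5.29, and its difference of effects passed, at -4.19 (limma adjusted p = 0.00984), as did that of LOX, at 3.06 (limma adjusted p = 0.0479). In U-CH1 0 of 16 other glycolysis genes and 0 of 35 other HIF targets passed with limma. Their counts at an unadjusted p under 0.05 were 2 higher and 0 lower, and 5 higher and 1 lower. Of all 16986 genes tested 1187 were higher and 645 lower at that threshold in U-CH1. There 1 of 17 HIF machinery genes, BHLHE41, rose by 1.74, where 1.27% of all genes tested passed. Across both lines LOXL2 rose by 1.17 and ERO1A, an oxidase of the endoplasmic reticulum, by 0.98, while RAB20 fell by 1.36 and BHLHE40 by 1.08 on the log2 scale. Of the 20 pyruvate dehydrogenase and citric acid cycle genes tested, 0 passed for TNF with limma in either line; with p unadjusted, 1 was higher and 0 lower in MUG-Chor1, and 1 higher and 2 lower in U-CH1.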

How the data were processed

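RNA of 8 samples was measured on whole-transcript arrays. The deposited table holds log2 values of 53617 probe sets, made by the authors with RMA and Transcriptome Analysis Console, both listed with no version, per the submitters' processing notes. The log base is not stated; it was taken from RMA and the range of 0.0648 to 12.7. RMA commonly gives all arrays 1 distribution, which hides a global shift. The median deviation of sorted values from the mean array was 0.0240, and no further normalization was applied. No detection calls or scan dates were used here.

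Probe sets with 1 symbol (23871) covered 22395 genes; 90 symbols were updated by Entrez identifier from RefSeq (GRCh38.p14). Several symbols were given for 1842 probe sets, and 27904 were not listed. Genes above 2.57, the median of all values, on at least 1 array (16986) were tested with limma 3.58.1 in R 4.3.3, two-sided, with Benjamini-Hochberg adjustment over all of them. Comparisons used 4 group means (4 residual degrees of freedom, all from the controls), and TNF across both lines an additive model (5). Intervals are 95% limma intervals. The number of arrays limits the precision. The scripts were tested on simulated data.

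Members and gene lists were chosen with earlier results of these data known. Values are given for every member called in any comparison and for the smallest p of each role group, and in other lists for up to 3 called genes each way; GAPDH, VHL, GYS1 and PYGL were added after their values were seen. Alternatives covered the filter, probe sets, normalization, variance model, array weights, threshold and leaving out each array.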

Additional observations from a re-analysis of the deposited data

Results flagged for a closer look

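ADM was set apart because its TNF effects in the 2 lines differed by a test of the difference itself, 2.91 (log2, MUG-Chor1 minus U-CH1; limma adjusted p = 0.0329). It read 7.15 on the MUG-Chor1 TNF array, against 4.25 to 5.07 on the MUG-Chor1 controls, and 4.14 on the U-CH1 TNF array, against 4.29 to 4.72 on the U-CH1 controls. Groups of 3 arrays or fewer were not tested for outlying arrays.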

How the results depend on the processing

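All counts below are of the 32 members. Between untreated lines the count of 13 ranged from 8 to 11 when 1 control was left out and from 11 to 15 under the other alternatives, all of them lower in MUG-Chor1. The control numbers paired the samples in labels only: deviations of same-numbered controls correlated at 0.04, -0.06 and 0.16, not every control correlated best with its own number, and with the replicate block over the 6 controls the count was 13 (PFKM lost, PFKFB3 gained). The U-CH1 TNF count of 1 became 0 with no filter, 0 with arrays centred on their medians and 2 at adjusted p under 0.10, and 0 to 1 with 1 control left out. The MUG-Chor1 TNF count of 2 became 4 with array weights and 4 at adjusted p under 0.10 (STC2 and VEGFA added both times), and 2 to 3 with 1 control left out. The difference of effects gave 2 with array weights and 2 at adjusted p under 0.10 (STC1 added), and 0 to 2 with 1 control left out. Across both lines the count of 2 became 1 to 2 with 1 array left out; without the U-CH1 TNF array the 2 genes were ADM and STC1 in place of ENO2 and STC2. Over all genes tested the counts were 3209 between untreated lines (2123 to 4348), 216 for TNF in U-CH1 (104 to 386), 489 for TNF in MUG-Chor1 (284 to 765), 90 for the difference of effects (38 to 152) and 422 across both lines (199 to 815), with the range over all alternatives in brackets. EPAS1 across both lines was 0.15, and it was -0.079 without the MUG-Chor1 TNF array and 0.39 without the U-CH1 TNF array. The cause of these changes was not tested, other than that leaving out an array leaves fewer samples. No other named gene changed direction under any alternative run. TNF was measured once in each line. Without detection calls the distance of SLC2A3 and STC1 from background in MUG-Chor1 controls is unknown.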

Other observations

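Among the other HIF targets, 4 genes with roles in glycogen metabolism passed between the untreated lines. They were not a list of their own, and GYS1 and PYGL were picked after their values were seen. PPP1R3C, which targets protein phosphatase to glycogen, and GBE1, the branching enzyme, were higher in MUG-Chor1 controls by 1.197 and 0.71 (log2). GYS1, glycogen synthase, and PYGL, glycogen phosphorylase, were lower, at -0.97 and -0.996.

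HIF1A had a second, dimmer probe set that did not follow the bright one. It read 3.71 on the MUG-Chor1 TNF array, against 4.51, 5.38 and 6.09 on the MUG-Chor1 controls, and 3.69 on the U-CH1 TNF array, against 4.42, 5.64 and 5.37 on the U-CH1 controls, so both TNF arrays lay below their controls. The bright probe set read 8.99, against 8.99, 8.92 and 9.30, and 9.25, against 9.27, 9.49 and 9.41. The annotation used does not say which transcript the dimmer probe set reads, and its difference was not tested on its own.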
